A study of Mus musculus with 40 samples.

Results

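Peroxisomes are single-membrane organelles that split very-long-chain and branched-chain fatty acids, oxidise D-amino acids and 2-hydroxy acids, begin the synthesis of ether lipids and destroy the hydrogen peroxide that their oxidases release. They hold no DNA: their enzymes are made in the cytosol and carried in by receptors and membrane proteins called peroxins, the Pex genes. In the kidney they are most abundant in the proximal tubule, whose cells burn fatty acids to pay for the reabsorption of filtered solutes. The 36 genes described here are listed peroxins, transporters and peroxisomal enzymes, taken from the 28467 genes of the bulk table by name. The list was made with earlier results of these data known.

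The mice were male C57BL/6 animals of 8 to 12 weeks. Under isoflurane, and with the analgesic buprenorphine, they lost the left kidney (unilateral nephrectomy, UNx) or had the same surgery with that kidney left in place (sham). The right kidney was then taken for bulk RNA sequencing after 24, 48 or 72 h, with 6 sham and 6 UNx mice at each time. Single nuclei were sequenced from the right kidneys of 2 sham and 2 UNx mice at 24 h. Every library carries its own mouse number in the labels, so the replicates are mice. All 24 h bulk libraries belong to labelled batch 1 and all 48 h and 72 h libraries to labelled batch 2, so the 24 h time and its batch cannot be told apart.

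The bulk libraries held between 14868434 and 24108453 estimated counts. They fell into groups that neither treatment nor time alone defined. At 48 h the 5 libraries that stood apart were all UNx. Mitochondrially encoded genes took 23.5% to 26.7% of counts in the 24 h shams but 13.6% to 15.5% in the 48 h and 72 h shams. At 48 h, UNx replicates 1 to 5 stood at 25.8% to 26.4%, and UNx replicate 6 at 15.2%. A score over 271 pseudogenes, set to 0 at the mean of the later shams and to 1 at the mean of the 24 h shams, gave 0.64 to 0.72 for those 5 libraries and 0.01 for UNx replicate 6. The 24 h UNx libraries lay between 0.67 and 0.88, below every 24 h sham (0.96 to 1.04). Called 24 h results of members are therefore followed by the value with this score in the fit. Called 48 h results of members are followed also by the value without those 5 libraries. Genes that mark all segments of the proximal tubule summed to 10950 to 12578 CPM (counts scaled to a common library total) in the 24 h shams and to 10359 to 11971 CPM in the 24 h UNx libraries, and none of the 6 was called at 24 h; at 48 h Slc34a1 was called higher and Lrp2 and Slc27a2 lower. Of the markers of single segments, Slc22a6 (S2) and Slc5a10 (S3) were called higher and Slc6a19 (S1) and Slc22a7 (S2) lower at 24 h. The fibroblast and mural genes Acta2 and Col1a2 and the red cell genes Hbb-bs and Hba-a1 were also called higher at 24 h. At 48 h Slc22a6 (0.66) and Cyp2e1 (0.55), both S2, and Slc5a10 (S3) were called higher and Slc6a19 (S1) lower. All 4 S2 markers had log2 fold changes above 0 there, with a median of 0.45. Of the markers of other cell types, Acta2, Cldn16 and Wt1 were called higher at 48 h. Ptprc, Pdgfra, Trpm6, Slc26a4, Alas2 and Hbb-bt were called lower. The part of these cell types in the member results was not tested. In bulk tissue, fewer cells of a type and less RNA per cell cannot be told apart.

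Of the members, 28 have a transcription start in the RefSeq promoter table used here (GRCm38.p6), and the 250 bases before the start are shown for 4 of them. Hao2 is shown because it was the only member called at all 3 bulk times. Dao and Cat, which like Hao2 make or remove hydrogen peroxide, and Idh1, the member with the largest rise at 24 h, are shown beside it. The sequences run 5′ to 3′ on the strand of the gene, and capitals mark the GC box GGGCGG on either strand, which the Hao2 window does not hold. The Dao windows not shown hold no GC box either, and 18 of the 28 members have it in any window. The windows are chr3:98893231-98893480 on the minus strand for Hao2, chr5:114003485-114003734 on the plus strand for Dao (1 of its 3 windows), chr2:103485154-103485403 on the minus strand for Cat and chr1:65186480-65186729 on the minus strand for Idh1 (1 of its 2 windows).
Hao2: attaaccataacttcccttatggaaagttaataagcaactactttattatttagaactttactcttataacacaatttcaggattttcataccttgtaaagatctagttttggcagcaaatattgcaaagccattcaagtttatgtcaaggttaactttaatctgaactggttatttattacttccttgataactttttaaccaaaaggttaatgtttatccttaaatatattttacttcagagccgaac
Dao: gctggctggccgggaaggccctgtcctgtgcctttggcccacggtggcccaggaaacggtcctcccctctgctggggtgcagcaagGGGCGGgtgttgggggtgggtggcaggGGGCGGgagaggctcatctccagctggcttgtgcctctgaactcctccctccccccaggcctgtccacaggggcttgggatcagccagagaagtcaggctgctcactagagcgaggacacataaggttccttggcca
Cat: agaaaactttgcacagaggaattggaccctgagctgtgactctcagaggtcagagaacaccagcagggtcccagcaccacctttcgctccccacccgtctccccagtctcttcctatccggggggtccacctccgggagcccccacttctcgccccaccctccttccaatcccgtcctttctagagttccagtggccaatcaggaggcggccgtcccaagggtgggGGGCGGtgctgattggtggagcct
Idh1: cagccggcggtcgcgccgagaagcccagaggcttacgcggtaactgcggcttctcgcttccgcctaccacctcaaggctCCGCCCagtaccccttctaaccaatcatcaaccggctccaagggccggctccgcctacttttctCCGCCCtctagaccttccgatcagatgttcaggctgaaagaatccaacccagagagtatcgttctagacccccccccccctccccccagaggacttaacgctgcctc

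The Hao2 window had 28.4% G and C, the lowest of the member windows, whose median was 58.8% beside 52.4% over all 32851 windows; 1.04% of all windows were at or below Hao2. The 28 members have 37 windows, since some have more than 1. A GC box stood in 20 of the 37 (54.1%), beside 32.7% of all windows. CCAAT was found in 13 (35.1%, beside 33.8%), CACGTG in 4 (10.8%, beside 6.02%) and TATAAA in 3 (8.11%, beside 12.4%). The direct repeat that PPAR binds with RXR was found in no member in its loose form (0.338% of all windows) or its strict form (0.0335%), nor were TGACCTTTG (0.426%), CAAAGTCCA (0.384%) or TTATGTAA (0.819%). The 9 motifs were searched on both strands and chosen with the expression results known, and the window was shortened from 300 to 250 bases after the first search. In the 300-base window CAAAGTCCA was found in Abcd3 and Pipox.

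In bulk kidney, 24 h after nephrectomy, 5 of the 11 peroxins of import and assembly rose and none fell, and 3 of the 4 oxidases of amino and hydroxy acids fell. Of the 35 members with enough counts to test, 17 were called (edgeR quasi-likelihood test, Benjamini-Hochberg adjusted p under 0.05 over all genes), 10 of them higher and 7 lower. Among all 14104 genes tested 27.3% were called, 14.2% higher and 13.1% lower. The median log2 fold change of the members was 0.05, beside 0.01 over all genes. At 48 h, 10 of 35 members were called, 7 higher and 3 lower, beside 32.9% of all 14280 genes (16.9% higher and 16.0% lower), a share near the background; the medians were 0.05 for the members and -0.04 for all genes. At 72 h, 1 of 36 was called, lower, beside 1.71% of 14556 genes (1.21% higher and 0.502% lower), and the member median was 0.02.

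**Figure D1:**
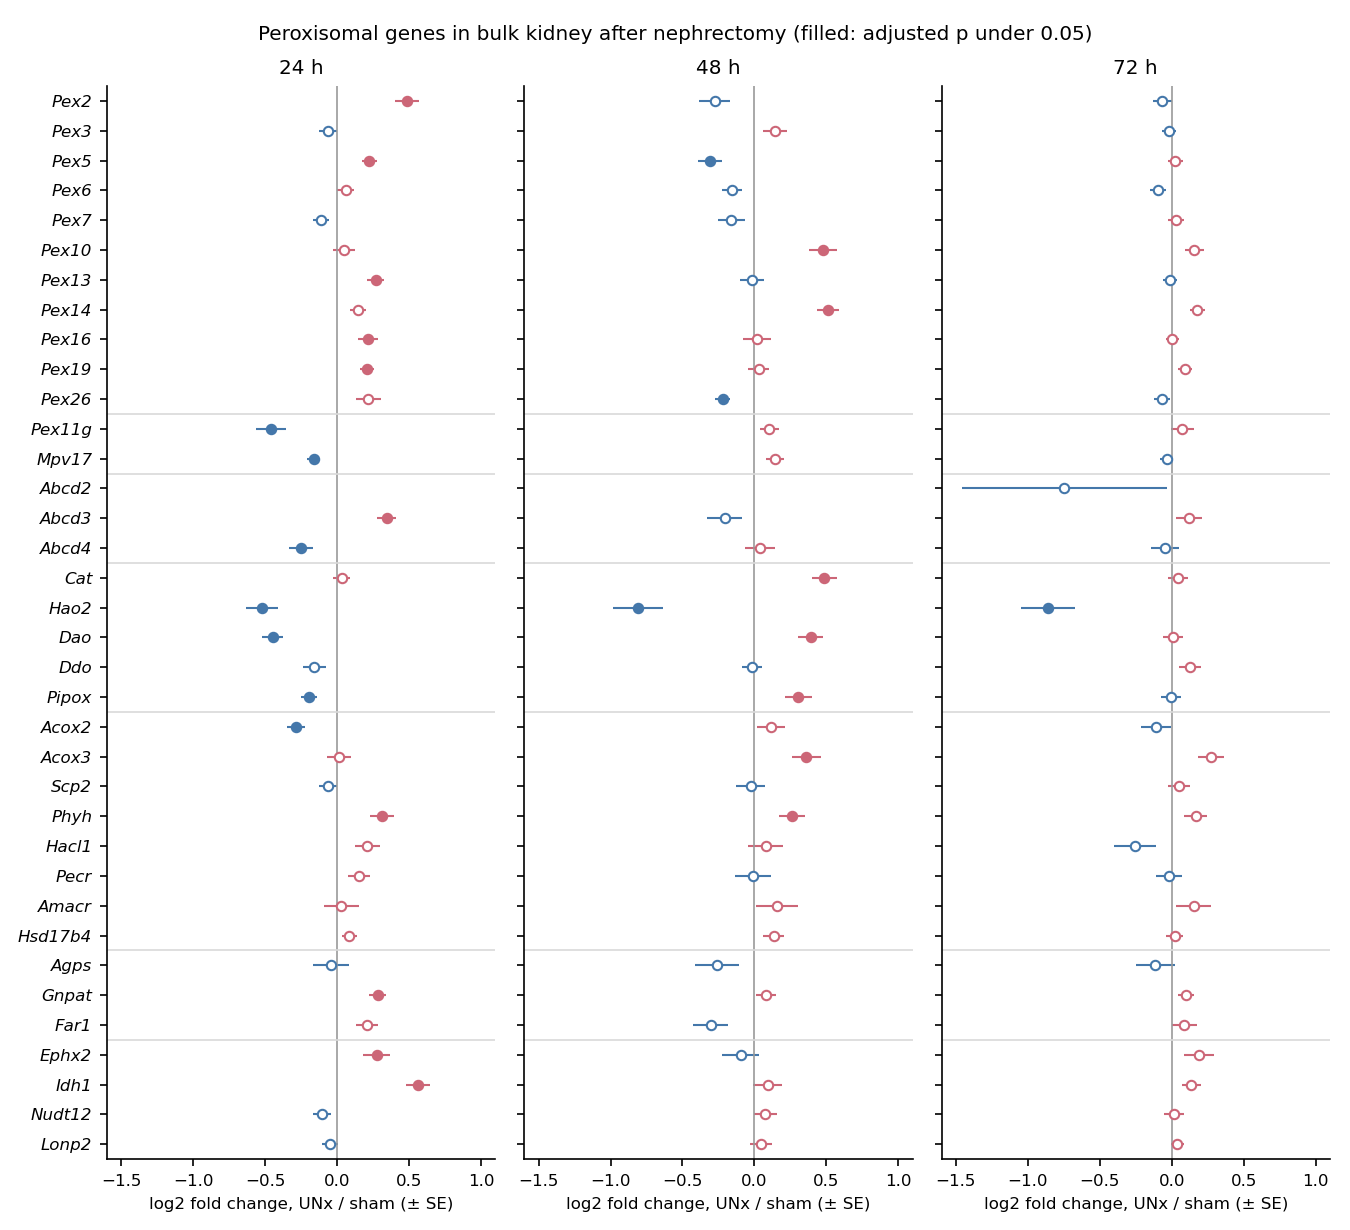
Log2 fold change of UNx over sham for each tested member in bulk kidney at 24, 48 and 72 h, with bars of 1 SE, filled where the edgeR adjusted p is under 0.05, red above and blue below 0. The members are grouped by role from top to bottom; 17, 10 and 1 points are filled, and Hao2 alone is filled in all 3 panels.

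Over the 3 times, 22 members were called at least once. Of these, 12 were called at 24 h only and 5 at 48 h only (Acox3, Cat, Pex10, Pex14 and Pex26). Hao2 and Phyh were called in 1 direction at both 24 h and 48 h, while Dao, Pex5 and Pipox were called in opposite directions at these times. The other 14 (Abcd2, Agps, Amacr, Ddo, Far1, Hacl1, Hsd17b4, Lonp2, Nudt12, Pecr, Pex3, Pex6, Pex7 and Scp2) were called at no time. Exons of 12 members overlap a gene on the opposite strand and those of 3 (Mpv17, Hacl1 and Gnpat) a gene on the same strand in the GENCODE annotation, and Pex13 and Scp2 have named pseudogenes, so reads of these genes may be shared; the library kit kept strand.

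Hao2 (ENSMUSG00000027870, chromosome 3, 98874521 to 98893239, GRCm38) encodes a peroxisomal oxidase of long-chain 2-hydroxy acids. At 24 h its level ran from 121 through a median of 155 to 173 CPM in the shams and from 81.0 through 105 to 119 CPM after nephrectomy. Every UNx library lay below every sham. At 48 h the shams ran from 123 through 205 to 275 CPM and the UNx libraries from 88.5 through 116 to 157 CPM. The groups overlapped there, with 4 of 6 UNx libraries below every sham. At 72 h the shams ran from 167 through 223 to 357 CPM and the UNx libraries from 80.7 through 134 to 165 CPM, again with every UNx library below every sham. Hao2 fell by 0.52 on the log2 scale at 24 h (SE 0.11, edgeR adjusted p = 0.0034), by 0.81 at 48 h (SE 0.17, adjusted p = 0.0038) and by 0.86 at 72 h (SE 0.19, adjusted p = 0.036). In none of the 3 differences between times was Hao2 called.

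UNx replicate 6, alone against the 48 h shams, gave a log2 fold change of -0.83 for Hao2 (edgeR adjusted p = 0.33). In that fit the spread comes from the 6 shams alone and the single UNx library is assumed to vary like them, so a lost call there says little and only the value is compared. With the pseudogene score in the fit the values were -0.71, -0.71 and -0.66 at 24, 48 and 72 h, with edgeR adjusted p of 0.54, 0.38 and 0.29. The 48 h value with the score also rests mostly on UNx replicate 6. At 72 h the call was lost when any 1 of 7 libraries was left out (sham replicates 3, 4 and 6 and UNx replicates 1, 2, 3 and 5), while the value stayed between -0.94 and -0.71 and its highest adjusted p was 0.09.

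Dao (ENSMUSG00000042096), the oxidase of D-amino acids, moved in opposite directions on consecutive days. At 24 h the shams ran from 267 through 334 to 370 CPM and the UNx libraries from 228 through 241 to 258 CPM, all below the shams. At 48 h the shams ran from 228 through 258 to 279 CPM and the UNx libraries from 289 through 338 to 387 CPM, all above the shams. At 72 h both groups had a median of 298 CPM. Dao fell by 0.45 on the log2 scale at 24 h (SE 0.07, edgeR adjusted p = 0.00064) and rose by 0.39 at 48 h (SE 0.09, adjusted p = 0.0045), and at 72 h its log2 fold change was 0.01. The 48 h effect exceeded the 24 h effect by 0.87 (adjusted p = 5.3e-07). The 24 h value was -0.18 with the pseudogene score in the fit (adjusted p = 0.88), and the 48 h value was 0.17 without UNx replicates 1 to 5 (adjusted p = 0.51).

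The other hydrogen peroxide enzymes differed among themselves. Cat, the catalase that breaks hydrogen peroxide down, was measured at 1146 to 1353 CPM in the 24 h shams and at 1171 to 1310 CPM in the 24 h UNx libraries, which overlapped throughout. At 48 h it ran from 832 through 947 to 999.9 CPM in shams and from 1055 through 1324 to 1499.7 CPM after nephrectomy, with every UNx library above every sham. Cat rose by 0.49 at 48 h (SE 0.09, edgeR adjusted p = 0.0014) and had log2 fold changes of 0.03 at 24 h and 0.04 at 72 h, neither called. UNx replicate 6, at 1055 CPM, was the lowest of the 48 h UNx libraries, and alone gave 0.17. Pipox, the oxidase of pipecolic acid and sarcosine, fell by 0.19 at 24 h (adjusted p = 0.019; -0.26 with the score, not called) and rose by 0.31 at 48 h (adjusted p = 0.021). Ddo, the oxidase of D-aspartate, gave -0.16, -0.02 and 0.13 and was not called. In this group of 5, then, 3 fell and none rose at 24 h, 3 rose and 1 fell at 48 h, and Hao2 alone fell at 72 h, beside the 27.3%, 32.9% and 1.71% of all genes called at these times.

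**Figure D2:**
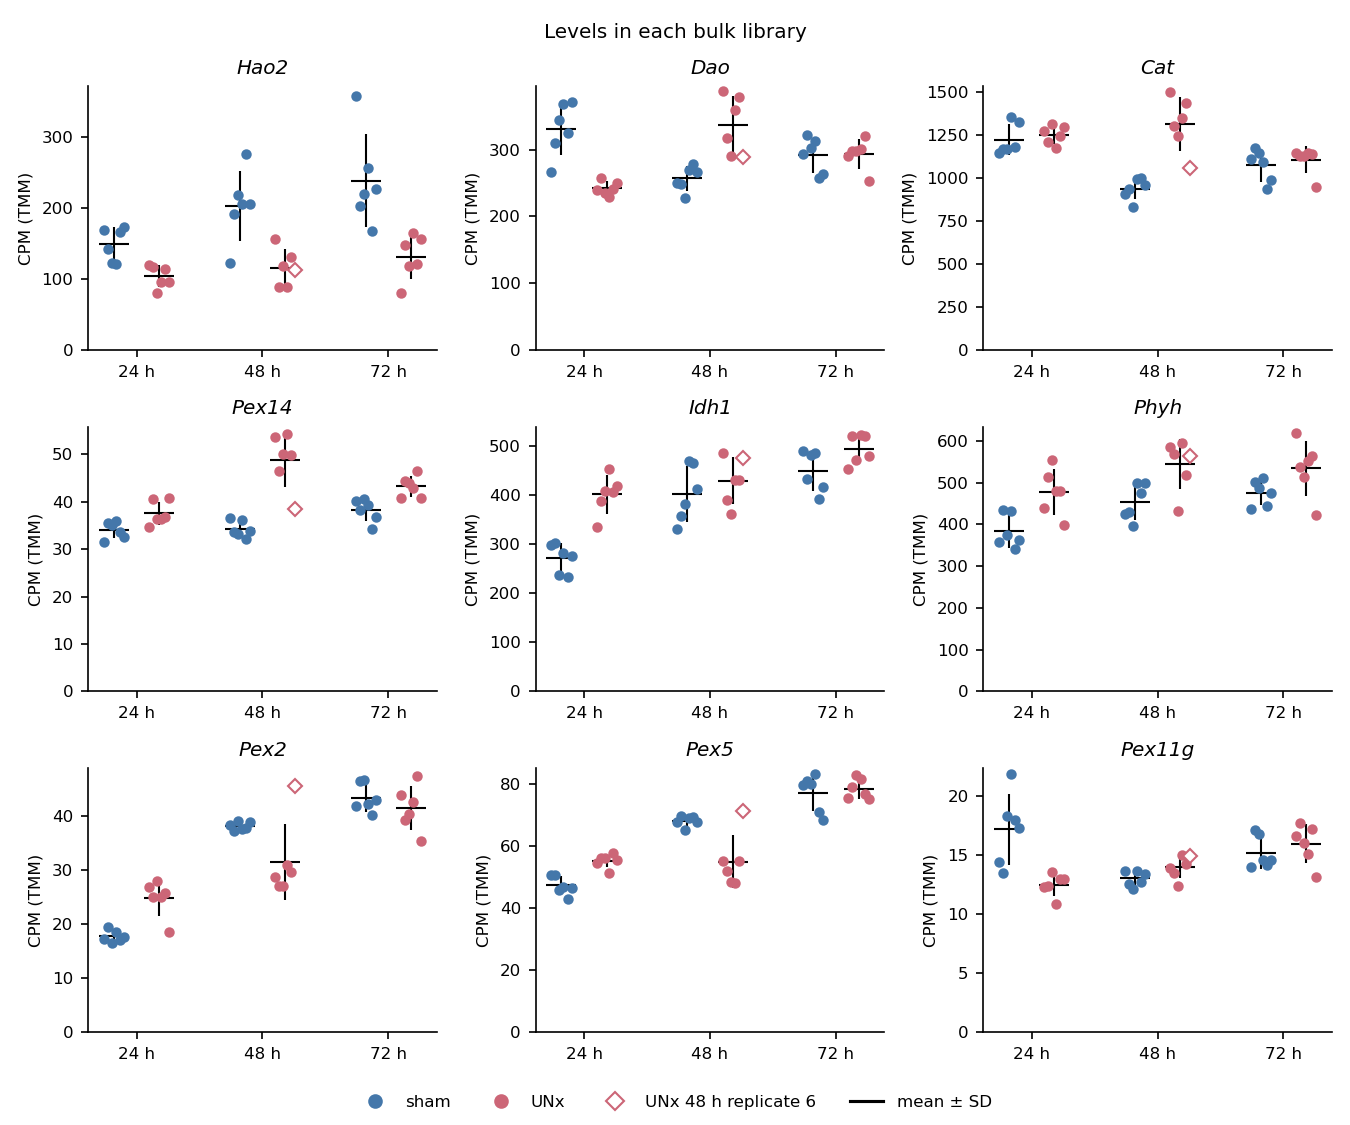
Normalised level (CPM) of 9 members in each of the 36 bulk libraries by time, blue for sham and red for UNx, with the mean and SD of 6 libraries in black and 48 h UNx replicate 6 as an open diamond. Hao2 lies lower in UNx at each time, Dao lies lower at 24 h and higher at 48 h, and for Pex2 and Pex5 the diamond lies above the 48 h shams while the other 5 UNx libraries lie below them.

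Of the 11 peroxins of matrix protein import and membrane assembly, 5 rose and none fell at 24 h, beside 14.2% and 13.1% of all genes. They were Pex2 (0.49, edgeR adjusted p = 0.00097), a subunit of the membrane ubiquitin ligase that recycles the import receptor; Pex13 (0.27, adjusted p = 0.0045), part of the docking complex; Pex5 (0.22, adjusted p = 0.0055), the receptor for most matrix enzymes; Pex16 (0.21, adjusted p = 0.036), which places membrane proteins; and Pex19 (0.21, adjusted p = 0.0049), their cytosolic chaperone. With the pseudogene score in the fit none of the 5 was called, and the values were -0.14, 0.043, 0.18, 0.085 and 0.22 in that order. All 6 UNx libraries lay above all shams for Pex5, Pex13 and Pex19 at 24 h. With Idh1 and Abcd3 these made 5 members entirely above the shams, and Acox2, Hao2, Dao and Mpv17 made 4 entirely below, beside 5.75% and 4.62% of all genes. The other peroxins, Pex3, Pex6, Pex7, Pex10, Pex14 and Pex26, had log2 fold changes of -0.06, 0.06, -0.11, 0.05, 0.14 and 0.22 at 24 h. Each of 7 of the 12 libraries ended the call of Pex16 when left out.

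At 48 h the direction within the import machinery split. Pex14, the docking protein, ran from 32.1 through 33.7 to 36.6 CPM in shams and from 38.5 through 49.9 to 54.3 CPM after nephrectomy, all above the shams, and rose by 0.51 (SE 0.08, edgeR adjusted p = 0.00063). Pex10, a partner of Pex2 in the ubiquitin ligase, rose by 0.48 (SE 0.10, adjusted p = 0.0028), also with no overlap. Pex26, the membrane anchor of the ATPase that pulls the receptor out, fell by 0.22 (adjusted p = 0.0066), with every UNx library below every sham, and Pex5 fell by 0.31 (adjusted p = 0.014). With Cat and Dao this made 4 members entirely above and 1 entirely below the shams, beside 6.21% and 4.81% of all genes. At 72 h the level of Pex14 was 34.3 to 40.6 CPM in shams and 40.7 to 46.6 CPM after nephrectomy, which did not overlap, and the effect of 0.18 on the log2 scale (SE 0.05) was not called at an edgeR adjusted p of 0.097. Pex14 was the only member entirely above the shams at 72 h and Hao2 the only one entirely below, beside 1.31% and 0.749% of all genes.

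Pex2 and Pex5 split the 48 h UNx libraries. Pex2 ran from 16.5 through 17.5 to 19.5 CPM in the 24 h shams and from 18.7 through 25.5 to 28.0 CPM in the 24 h UNx libraries, with 1 UNx library inside the sham range. At 48 h the shams stood at 37.4 to 39.2 CPM, UNx replicates 1 to 5 at 27.1 to 30.9 CPM, all below, and UNx replicate 6 at 45.6 CPM, above. Pex2 at 72 h was 40.3 to 46.7 CPM in shams and 35.5 to 47.4 CPM after nephrectomy. Its 48 h effect was 0.73 below the 24 h effect (edgeR adjusted p = 6.4e-05) and its 72 h effect 0.53 below (adjusted p = 0.018). With the pseudogene score in the fit the 24 h value turned to -0.14. Pex5 showed the same layout: 42.9 to 50.7 CPM against 51.3 to 57.7 CPM at 24 h, then 65.1 to 69.7 CPM in the 48 h shams against 47.9 to 55.1 CPM in UNx replicates 1 to 5 and 71.3 CPM in UNx replicate 6. The 48 h fall of Pex5 turned to 0.070 without UNx replicates 1 to 5 and to 0.058 with the score in the fit. Both values rest mostly on UNx replicate 6.

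The 2 membrane genes of the division group fell at 24 h. Pex11g, of the family that elongates the membrane before division, ran from 13.4 through 17.6 to 21.8 CPM in shams and from 10.8 through 12.6 to 13.5 CPM after nephrectomy. It fell by 0.46 (SE 0.10, edgeR adjusted p = 0.0046), with 1 UNx library inside the sham range, and had log2 fold changes of 0.10 and 0.07 at 48 h and 72 h. With the score in the fit its 24 h value was -0.12 (adjusted p = 0.97). Its 72 h effect lay 0.55 above its 24 h effect (adjusted p = 0.0084). Mpv17, first described as peroxisomal and now placed in the inner mitochondrial membrane, fell by 0.16 at 24 h (adjusted p = 0.018) and gave 0.14 and -0.04 later; with the score its 24 h value was -0.15 and was not called.

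Among the ABC transporters, Abcd3, which brings branched-chain and very-long-chain acyl-CoAs into the peroxisome, rose by 0.34 at 24 h (SE 0.06, edgeR adjusted p = 0.0015). Its shams ran from 296 through 316 to 331 CPM and its UNx libraries from 349 through 402 to 466 CPM, without overlap. With the pseudogene score in the fit the value was 0.038 (adjusted p = 0.98). At 48 h it was measured at 316 to 422 CPM in shams, 266 to 333 CPM in UNx replicates 1 to 5 and 461 CPM in UNx replicate 6, with a log2 fold change of -0.21 that was not called. Abcd4, a lysosomal relative that exports vitamin B12, fell by 0.25 at 24 h (adjusted p = 0.040), and each of 8 of the 12 libraries ended that call when left out; with the score the value was -0.16. Abcd2, a transporter of adipose tissue and brain, was near 0 in most libraries: at most 0.338 CPM in the 24 h shams, and 12.4 CPM in 24 h UNx replicate 4. That library also held the most adipocyte marker counts, 690 CPM summed over 7 genes, against 1.01 to 4.67 CPM in the 24 h shams and 0.764 CPM in the lowest 24 h UNx library.

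Enzymes of branched-chain and bile acid oxidation gave 1 rise and 1 fall among 8 at 24 h, 25.0% called beside 27.3% of all genes. Acox2, the oxidase for bile acid precursors and branched chains, fell by 0.28 (SE 0.06, edgeR adjusted p = 0.0043): the shams stood at 151 to 166 CPM and the UNx libraries at 108 to 145 CPM, without overlap. It was the only member still called at 24 h with the pseudogene score in the fit (-0.69, adjusted p = 0.038). Phyh, which starts the alpha-oxidation of phytanic acid, ran from 341 through 369 to 435 CPM in the 24 h shams and from 400 through 480 to 555 CPM after nephrectomy; at 48 h the shams were 397 to 499 CPM and the UNx libraries 433 to 594 CPM. The groups overlapped at both times. Phyh rose by 0.31 at 24 h (adjusted p = 0.012) and by 0.26 at 48 h (adjusted p = 0.035), and gave 0.17 at 72 h (adjusted p = 0.30). With the score in the fit its 24 h value was -0.065, and 6 of the 12 libraries at 48 h each ended the call when left out. Acox3, the pristanoyl-CoA oxidase, rose by 0.36 at 48 h (adjusted p = 0.014) and gave 0.28 at 72 h (adjusted p = 0.14), where 5 of 6 UNx libraries lay above every sham.

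The other enzymes of that pathway were not called. They are Scp2, which holds the thiolase for branched chains, Hacl1, the lyase of alpha-oxidation, Pecr, an enoyl-CoA reductase, Amacr, the racemase of branched acyl-CoAs, and Hsd17b4, the bifunctional enzyme; their log2 fold changes lay between -0.06 and 0.21 at 24 h, between -0.03 and 0.16 at 48 h and between -0.25 and 0.15 at 72 h. Of the ether lipid enzymes, Gnpat, the acyltransferase of the first step, rose by 0.28 at 24 h (edgeR adjusted p = 0.0038), and with the score in the fit the value was 0.0098 (adjusted p = 0.997). Agps, which puts in the ether bond, and Far1, which makes the fatty alcohol for it, were not called; Far1 gave 0.21, -0.30 and 0.09 at the 3 times.

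Idh1 (ENSMUSG00000025950), an NADPH-forming enzyme of the cytosol and the peroxisome, had the largest 24 h rise among the members. Its level ran from 234 through 279 to 302 CPM in shams and from 334 through 407 to 454 CPM after nephrectomy, without overlap, and it rose by 0.56 (SE 0.08, edgeR adjusted p = 0.00030). At 48 h and 72 h the groups overlapped: 330 to 468 CPM against 361 to 486 CPM, and 391 to 490 CPM against 454 to 522 CPM, with log2 fold changes of 0.09 and 0.14, neither called. The 24 h value was 0.60 with the pseudogene score in the fit (adjusted p = 0.34). Ephx2, the soluble epoxide hydrolase, rose by 0.27 at 24 h (adjusted p = 0.036), a call that 8 of the 12 libraries each ended when left out, and turned to -0.033 with the score. Nudt12, an NADH hydrolase, and Lonp2, the peroxisomal protease, were not called at any time.

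The test of the difference between times gave 18 members between 24 h and 48 h (10 with a higher and 8 with a lower effect at 48 h), beside 37.0% of 15093 genes (19.3% higher and 17.7% lower). Between 48 h and 72 h it gave 6 (Pex5 higher; Cat, Pex14, Dao, Pex10 and Pipox lower), beside 14.6% (5.86% higher and 8.78% lower), and between 24 h and 72 h 3 (Pex11g and Dao higher, Pex2 lower), beside 4.15% (2.74% higher and 1.41% lower). Without UNx replicates 1 to 5 at 48 h the counts became 1, 0 and 5, and with the pseudogene score in the fit 0, 0 and 1. All 4 S2 markers, Cyp2e1, Slc22a6, Slc22a7 and Slc22a8, were also called higher in the difference from 24 h to 48 h, as Dao, Pipox and Cat were; their part in it was not tested. Without those 5 libraries the 48 h UNx arm was UNx replicate 6 alone, so only its values are compared. UNx replicate 6 lay inside the sham range for 6 of 36 members. The share over all genes was not computed, so this count cannot be read as particular to the members. Its log2 fold changes were -0.83 for Hao2, -0.21 for Pex26, 0.32 for Phyh, 0.30 for Acox3, 0.26 for Pex10, 0.17 for Cat, 0.17 for Dao, 0.17 for Pex14, 0.11 for Pipox and 0.070 for Pex5. Hao2, Pex26, Phyh and Acox3 were thus close to their values with all 6 UNx libraries, and the others were smaller or, for Pex5, of the other sign. With the score in the fit the 48 h values were 0.34 for Phyh, 0.27 for Pex10, 0.27 for Acox3, 0.22 for Dao, 0.21 for Cat, 0.18 for Pex14, 0.15 for Pipox and -0.21 for Pex26. With the score in the fit 1 member was called at 24 h and none at 48 h or 72 h. Since the score and the treatment do not overlap at 24 h, they cannot be told apart there. At 48 h the shams scored -0.04 to 0.06, UNx replicates 1 to 5 0.64 to 0.72 and UNx replicate 6 0.01. The 48 h values with the score thus rest mostly on UNx replicate 6 and are not a separate check from its values alone.

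**Figure D3:**
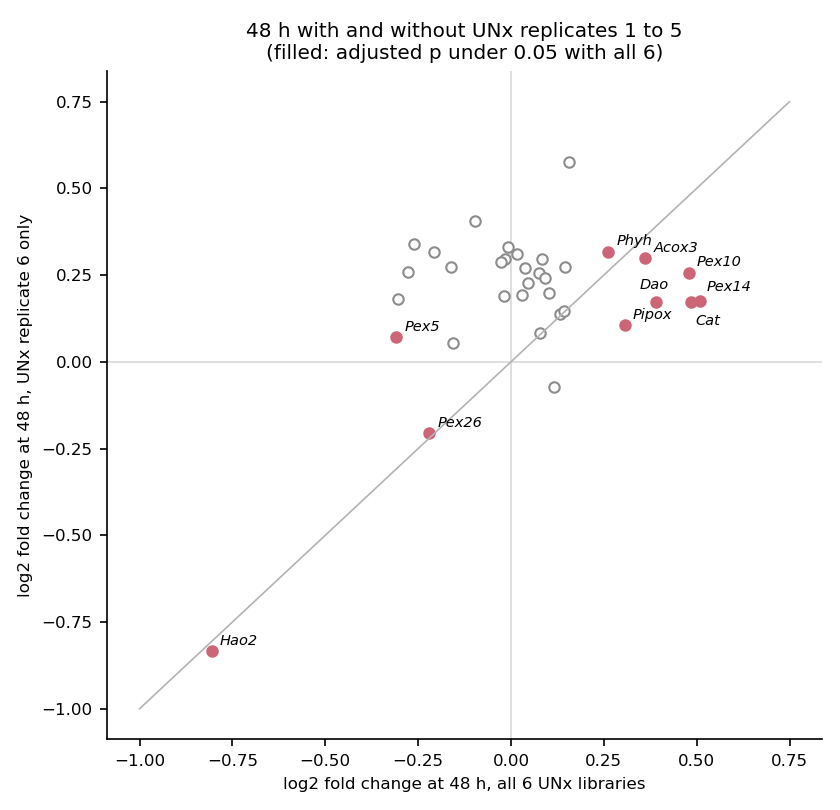
Log2 fold change of UNx over sham at 48 h for the 35 tested members, with all 6 UNx libraries on the x axis and with UNx replicate 6 alone on the y axis; the grey line marks equal values and filled points had an edgeR adjusted p under 0.05 with all 6. Hao2 lies near the line at -0.81 and -0.83, Cat, Dao and Pex14 lie below it, and Pex5 changes sign.

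Other peroxisomal genes, 51 in number and not members, were listed for comparison, and 47 could be tested. At 24 h 14 of them rose and 1 fell, beside 14.2% of all genes called higher and 13.1% lower. At 48 h 13 rose and 3 fell, beside 16.9% higher and 16.0% lower. Only with both directions pooled were the shares near the background, at 31.9% beside 27.3% at 24 h and 34.0% beside 32.9% at 48 h. At 72 h none was called. Called higher at both 24 h and 48 h were Pex11a, the inducible division gene (0.55, edgeR adjusted p = 4.4e-05, and 0.24, adjusted p = 0.027), Acot8, a peroxisomal thioesterase (0.28 and 0.25), and Tysnd1, the protease that trims imported enzymes (0.21 and 0.27). Nuclear receptors and coactivators of such genes were listed as well. Ppara, the receptor that drives fatty acid oxidation genes, fell by 0.55 at 48 h (adjusted p = 0.0040) and gave -0.31 at 72 h (adjusted p = 0.061). Ppard, its relative, rose by 0.97 at 48 h (adjusted p = 0.0059), and Rxrb, a shared partner receptor, fell by 0.15 at 24 h (adjusted p = 0.040). Others were not called: at 24, 48 and 72 h Pparg gave 1.30, -0.53 and -0.15, Rxra -0.00, 0.05 and 0.00, Hnf4a -0.19, 0.12 and -0.04, and Esrra 0.09, 0.09 and 0.05. The coactivators Ppargc1a and Ppargc1b gave -0.18, 0.01 and -0.13, and -0.13, 0.22 and -0.25. All values of these comparison genes, receptors and coactivators come from fits without the pseudogene score. At 48 h they include the UNx libraries that stood apart. Most member calls at 24 h and all at 48 h were lost with that score. The calls of these other genes therefore cannot be read as firmer than those of the members.

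Compared per kilobase of exon in the 72 h shams, Cat was the most abundant member at 411 CPM per kb, followed by Phyh (251), Pecr (216), Scp2 (207), Idh1 (162), Ephx2 (154) and Hao2 (116). Pex10 stood at 2.93 and Abcd2, the lowest, at 0.21 CPM per kb.

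The nuclei show which tubule cells carry these genes. The deposited annotation puts 16500 nuclei (2641 to 5342 per mouse, median 7581 to 9909 UMIs) into 30 classes, of which 23 had at least 10 nuclei in every mouse. The 3 proximal tubule classes PTS1, PTS2 and PTS3 held 2697, 2088 and 1671 nuclei. A proximal tubule class had the highest mean level for 21 of the 36 members (18 in the sham mice alone), and the mean of the 3 classes lay above the mean of the other 20 in all 4 mice for 25. The classes were made from the same nuclei, so these are descriptions with no test. The share over all genes was not computed, so the counts do not set the members apart from other genes. Margins over the highest other class varied, as for Pex19 (52.2 CPM in PTS3, 52.1 CPM in DTL2) and Pecr (807 CPM in PTS2, 190 CPM in Fib). Between 1 and 7 barcodes were shared by any 2 libraries.

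The members spread unevenly along the proximal tubule. Acox2 was highest in PTS3, at 535 and 275 CPM in the sham mice and 447 and 444 CPM in the UNx mice (mean 425), against means of 102 in PTS2 and 42.6 in PTS1. Idh1 ran the other way, with means of 355, 186 and 66.9 CPM from PTS1 to PTS3, and so did Abcd4 (128, 40.2 and 28.2 CPM) and Dao (395, 319 and 279 CPM). Agps was low in PTS1 (182 CPM) and high in PTS2 and PTS3 (934 and 897 CPM), Far1 climbed from 255 through 439 to 650 CPM, and Amacr from 76.0 to 210 and 223 CPM. Pecr (579, 807 and 634 CPM) and Cat (154, 229 and 232 CPM) were nearer to even. PTS1 led for Abcd4, Dao, Hacl1 and Idh1, PTS2 for Abcd3, Acox3, Phyh, Pecr, Hsd17b4, Agps, Ephx2 and Lonp2, and PTS3 for Pex13, Pex19, Cat, Pipox, Acox2, Scp2, Amacr, Far1 and Nudt12.

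The other 15 members had their highest mean in another class. Ddo was highest in the thick ascending limb, at a mean of 498 CPM in MTAL and 431 CPM in CTAL2, against 188 CPM over the proximal classes, which still lay above the mean of the other classes in all 4 mice. Hao2 had its highest class mean in CTAL1, at 64.8 CPM, against 35.5, 44.6 and 39.3 CPM in PTS1, PTS2 and PTS3; in the sham mice alone the means were 75.5 CPM against 47.4, 64.2 and 62.9 CPM. Of the 11 peroxins of import and assembly, only Pex13 and Pex19 had their highest mean in a proximal class, and neither did in the sham mice alone; Pex5 had means of 23.1 to 25.0 CPM in the proximal classes and 26.0 CPM in MTAL. Counts of proximal genes in other classes, which free RNA can give, differed between the batches: Dao in the endothelial class EC1 was 17.6 and 16.8 CPM in the replicate 1 mice but 152 and 158 CPM in the replicate 2 mice, so levels of proximal genes in other classes are read within a batch. Abcd2, with 90 UMIs in all nuclei, is left out of the plot by class.

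**Figure D4:**
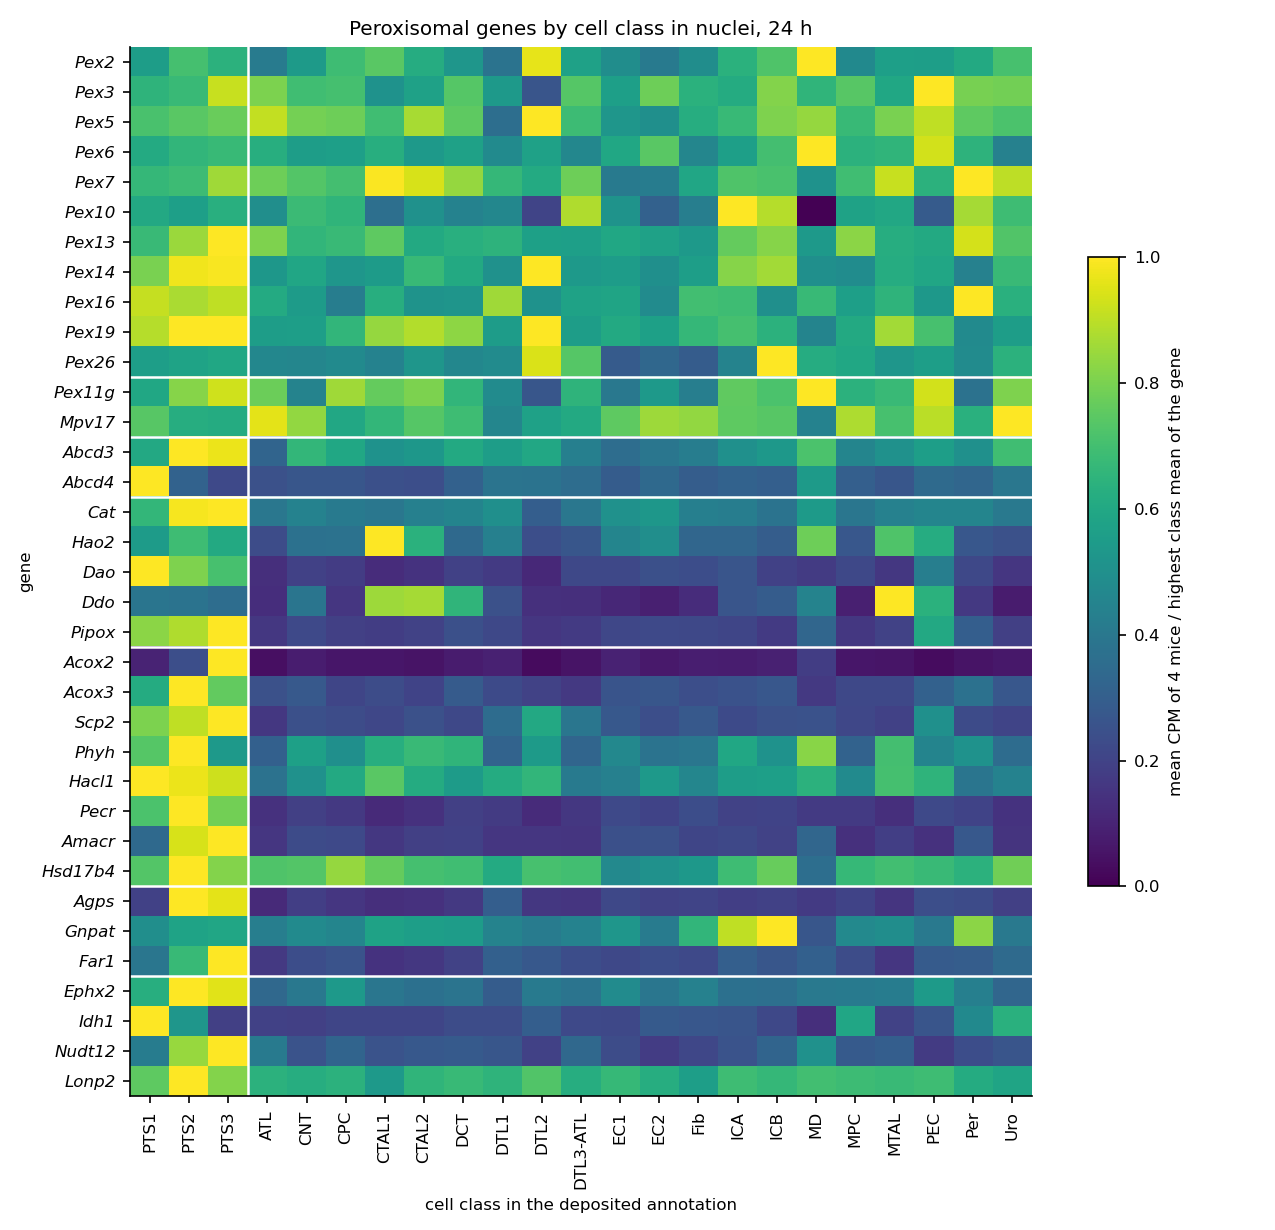
Mean level of 35 members over the 4 mice in each of the 23 classes of nuclei, as a share of the highest class mean of that gene (1 is yellow, 0 is dark blue), with the 3 proximal tubule classes at the left of the white line. Acox2 is bright in PTS3 alone, Idh1 and Abcd4 in PTS1, Ddo in MTAL and the CTAL classes, and Hao2 in CTAL1.

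With 2 mice against 2, the test of UNx against sham without a block called no gene in any of the 23 classes or in all nuclei, although 360 genes in all nuclei, 182 in PTS1, 336 in PTS2 and 250 in PTS3 had an unadjusted p under 0.05; DESeq2 called 20, 5, 28 and 23. The smallest p an exact permutation of these mice can give is 0.333. Mice with the same replicate number share a labelled batch, so the fit with the replicate block is given beside it. That fit called Hao2 and Far1 in all nuclei, beside 1.04% of genes, and Hao2 alone among the 35 members tested in PTS1, PTS2 and PTS3, beside 1.64%, 3.03% and 2.47%. In the other 20 classes it called no member, beside 0.0% to 0.836% of genes, among them 0.203% in CPC, 0.0431% in CTAL2 and 0.442% in DTL1.

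Hao2 was lower in the proximal tubule nuclei of both UNx mice than in those of both sham mice. In PTS1 the sham mice had 40.5 and 54.4 CPM and the UNx mice 23.1 and 23.9 CPM; in PTS2 the values were 59.9 and 68.5 against 25.9 and 24.2 CPM. In PTS3 they were 58.4 and 67.4 CPM (394 and 268 UMIs) against 13.6 and 17.9 CPM (104 and 124 UMIs). The blocked log2 fold changes were -0.93 in PTS1 (SE 0.16, edgeR adjusted p = 0.027), -1.34 in PTS2 (SE 0.17, adjusted p = 0.0018) and -2.002 in PTS3 (SE 0.17, adjusted p = 0.00025); without the block they were -0.95, -1.34 and -1.99. The difference between the segments was not tested. The annotation has a finer level in which the UNx mice's proximal nuclei carry names of their own, with 93.8% of UNx PTS1, 99.7% of UNx PTS2 and 99.7% of UNx PTS3 nuclei in clusters named for UNx; each class is compared here as a whole.

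Outside the proximal tubule Hao2 was called in no class. It was lower in the UNx mouse of both replicate pairs in 16 of the other 20 classes, and both UNx mice lay below both sham mice in 6 (CTAL1, CTAL2, DTL3-ATL, MD, PEC and Per). In all 13 of these classes that could be fitted the blocked log2 fold change was below 0, from -1.19 to -0.29, with edgeR adjusted p of 0.22 or more. In CTAL1 the sham mice had 72.6 and 78.4 CPM and the UNx mice 70.8 and 37.3 CPM, and in MTAL 46.8 and 62.6 against 48.5 and 29.3 CPM (blocked log2 fold change -0.41, edgeR adjusted p = 0.72). In EC1 they were 15.1 and 55.2 against 13.6 and 33.9 CPM, with both replicate 2 mice above both replicate 1 mice. The part of free RNA in these classes was not tested.

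Far1 was higher after nephrectomy within each batch: 274 and 402 CPM in the replicate 1 pair and 204 and 301 CPM in the replicate 2 pair over all nuclei, a blocked log2 fold change of 0.63 (SE 0.09, edgeR adjusted p = 0.046). By segment it gave 0.48, 0.58 and 0.56, none called (adjusted p = 0.10, 0.070 and 0.093). The members with the lowest unadjusted p for a higher level without the block were Far1 in PTS1, Acox3 in PTS2 and Cat in PTS3. Acox3 in PTS2 stood at 128 and 168 CPM in sham against 255 and 186 CPM in UNx mice, and Cat in PTS3 at 192 and 186 CPM against 289 and 262 CPM, neither called with or without the block (blocked adjusted p = 0.15 and 0.093). Hacl1, picked out after its values were seen, was lower within each batch in PTS3, at 69.3 against 54.9 CPM and 67.1 against 26.9 CPM (blocked adjusted p = 0.072).

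**Figure D5:**
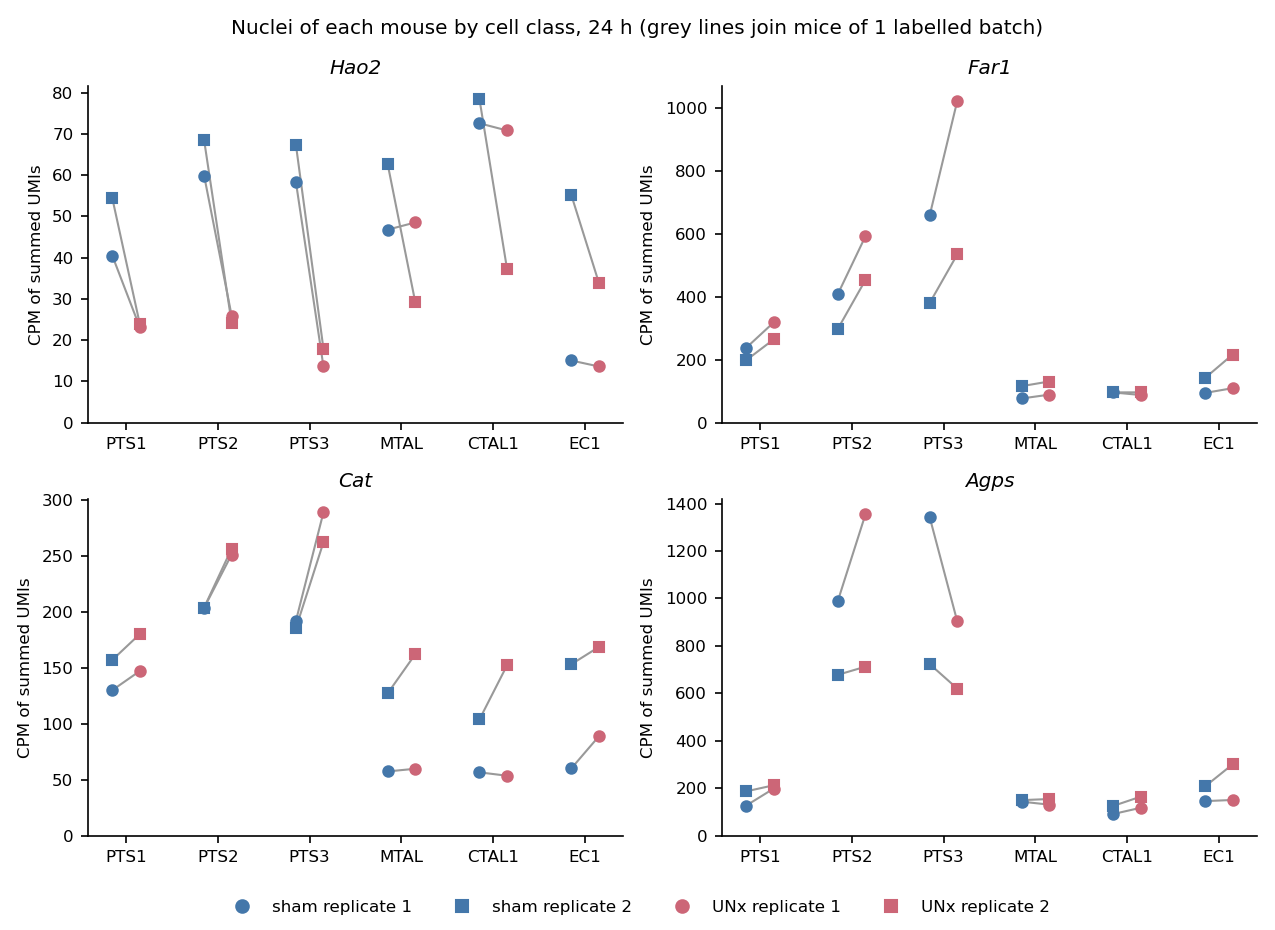
Level (CPM of summed UMIs) of Hao2, Far1, Cat and Agps in 6 classes of nuclei for each of the 4 mice, blue for sham and red for UNx, circles for replicate 1 and squares for replicate 2, with grey lines joining mice of the same labelled batch. Hao2 lies lower in both UNx mice in PTS1, PTS2 and PTS3, and Far1 lies higher in the UNx mouse of each pair there.

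Beside the bulk values of 24 h, the nuclei of 24 h had the same direction for Hao2 and another size or sign for some members. Idh1, with 0.56 in bulk, gave a blocked value of 0.04 in all nuclei (edgeR adjusted p = 0.89), and Dao, with -0.45 in bulk, gave 0.22 (adjusted p = 0.33). Acox2 gave -0.28 in bulk and 0.40 in nuclei (adjusted p = 0.53), and Cat 0.03 and 0.46 (adjusted p = 0.076). These are different mice and a different RNA pool, nuclear rather than whole-tissue, and the difference between the assays was not tested. The sum over all nuclei also depends on the mix of classes in each mouse. PTS3 held 502 of 5342 and 211 of 2641 nuclei in the sham mice. In the UNx mice it held 502 of 5151 and 456 of 3366. The part of this mix in the values of all nuclei was not tested.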

How the data were processed

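Bulk RNA (polyA, stranded TruSeq libraries, per the labels' protocols) and single nuclei (10x 3' chemistry) of mouse right kidney were measured. Per the submitters' processing notes, the bulk build was GRCm39 and the bulk tools were Salmon 1.5.0, R 4.10 and FastQC 0.11.8, while alevin, Seurat and mm10 were listed for the nuclei. The authors deposited estimated counts per gene for 36 bulk libraries and estimated UMI counts per nucleus, both partly not whole (34.1% of bulk values; 13.9% of nucleus values above 0), with an annotation of nuclei. How nuclei were filtered and doublets treated is not given in the sources used here; no nucleus had under 1755 UMIs, and no filter was added.

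Counts were rounded and tested with edgeR 4.0.16 (R 4.3.3; filterByExpr, TMM, quasi-likelihood, two-sided, Benjamini-Hochberg over all genes tested, called under 0.05), for each time on its 12 libraries and, for differences between times, in 1 fit of all 36; levels are CPM with TMM scaling. Nucleus counts were summed per mouse and class (at least 10 nuclei in each mouse) and tested likewise; nucleus levels are CPM of those sums. The scripts were tested on simulated data. Alternatives were DESeq2 1.42.0 (Wald test, and its size factors in edgeR), no filter on low counts, no mitochondrially encoded genes, all libraries in 1 fit, the replicate block, the pseudogene score as covariate, leaving out each library, and leaving out 48 h UNx replicates 1 to 5. Bulk replicate numbers did not pair the libraries. In the nuclei they share a labelled batch, and deviations of same-numbered mice correlated at 0.81, so the blocked fit is given there. All bulk replicate pairs differed by more than sampling noise.

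The members, gene lists and motifs were chosen with earlier results of these data known. Named members are those called at a time; values per library are given for those called in 1 direction at 2 times and, per comparison, for the member of lowest p among those higher and among those lower, and others are given in ranges. Gene positions and exon lengths come from GENCODE M21 on GRCm38, not the build named for the bulk counts; promoters are from RefSeq GRCm38.p6. Not every listed regulator is reported here.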

Additional observations from a re-analysis of the deposited data

Results flagged for a closer look

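Within groups of 6 bulk libraries, 21 of 216 member and group combinations had a library far from the other 5 by Dixon's test at its 95% critical value; chance alone gives about 1 in 20, or 10.8. Of these, 5 were in 48 h UNx replicate 6: Pex2 at 45.6 CPM, Pex5 at 71.3 CPM, Pex7 at 62.7 CPM, Pex13 at 40.7 CPM and Abcd3 at 461 CPM, each above the other 5. Another 5 were in 72 h UNx replicate 6: Cat at 949 CPM, Scp2 at 599 CPM, Pecr at 261 CPM, Gnpat at 84.9 CPM and Pex7 at 48.8 CPM, each below the other 5. Abcd2 stood out in 24 h UNx replicate 4 (12.4 CPM), 48 h sham replicate 3 (5.22 CPM) and 48 h UNx replicate 5 (1.91 CPM). In 24 h UNx replicate 6 Pex2 (18.7 CPM) and Acox2 (108 CPM) were low. The other 6 were Pex6 in 72 h UNx replicate 5 (55.1 CPM), Pex10 in 72 h UNx replicate 4 (10.2 CPM), Mpv17 in 48 h UNx replicate 3 (65.3 CPM), Abcd4 in 72 h sham replicate 4 (36.7 CPM), Hacl1 in 24 h sham replicate 2 (39.6 CPM) and Pipox in 24 h sham replicate 1 (253 CPM).

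The effect of nephrectomy differed between times for some members (edgeR quasi-likelihood test, adjusted p under 0.05; log2 difference, later minus earlier). From 24 h to 48 h it was higher for Dao (0.87), Pex11g (0.59), Pipox (0.53), Cat (0.48), Pex10 (0.46), Acox2 (0.43), Pex14 (0.39), Acox3 (0.38), Mpv17 (0.33) and Pex3 (0.23). It was lower for Pex2 (-0.73), Abcd3 (-0.52), Pex5 (-0.50), Far1 (-0.48), Idh1 (-0.44), Pex26 (-0.41), Pex13 (-0.26) and Abcd2 (-5.21, which rests on 24 h UNx replicate 4: without it the value is -1.56 and is not called). From 48 h to 72 h it was higher for Pex5 (0.32) and lower for Cat (-0.45), Dao (-0.39), Pex14 (-0.34), Pex10 (-0.33) and Pipox (-0.32). From 24 h to 72 h it was higher for Pex11g (0.55) and Dao (0.48) and lower for Pex2 (-0.53). The 24 h libraries are labelled batch 1 and the later ones batch 2, so time and batch cannot be told apart in differences from 24 h.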

How the results depend on the processing

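The counts of called members at 24, 48 and 72 h were 17, 10 and 1. With the pseudogene score as covariate they were 1, 0 and 0, and the 48 h count was 0 without UNx replicates 1 to 5. The 72 h count was 2 with DESeq2 (Hao2 and Pex14) and 0 with the replicate block. Leaving out 1 library gave 14 to 19, 9 to 16 and 0 to 2, where 16 and 2 came without UNx replicate 6. For the differences of 24 h with 48 h, 48 h with 72 h and 24 h with 72 h (18, 6 and 3) the score gave 0, 0 and 1, leaving out 48 h UNx replicates 1 to 5 (chosen after seeing the data) gave 1, 0 and 5, DESeq2 gave 5 for the last, and leaving out 1 library gave 14 to 21, 4 to 11 and 3 to 5; 11 came without 48 h UNx replicate 6, and 5 without it or without 24 h sham replicate 2.

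Called values that changed sign with the score were, at 24 h, Pex2 (-0.14), Phyh (-0.065) and Ephx2 (-0.033), at 48 h Pex5 (0.058), and in the difference of 24 h and 48 h Pex2 (0.081), Pex5 (0.0020), Pex13 (0.21), Pex14 (-0.070), Abcd3 (0.17) and Far1 (0.20). Without UNx replicates 1 to 5 they were Pex5 at 48 h (0.070), Pex13 in the difference of 24 h and 48 h (0.040), and Pex5 (-0.044) and Pex14 (0.0045) in that of 48 h and 72 h. Sign changes between values that were both not called are not counted. The cause of these changes was not tested.

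In the nuclei, where the count was 0, the replicate block gave 2 members in all nuclei and 1 each in PTS1, PTS2 and PTS3, DESeq2 gave 1 in PTS3, and leaving out 1 mouse gave 0 to 0. In bulk, same-numbered sham and UNx libraries had deviations correlated between -0.29 and 0.13 over 18 pairs, and 2 of 18 correlated best with their own number; beyond the 72 h count the block ended the call of Pex16 at 24 h (adjusted p = 0.082). With 2 mice a group, the smallest member change called in nuclei was that of Far1 (0.63), and smaller ones may not be detectable.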
